A study of Mus musculus with 12 samples.

Results

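Whole-kidney RNA-Seq was used to describe 10 genes of vitamin D activation, breakdown, reception and uptake in mice given SK-124 or vehicle. The genes were taken by symbol from a list that runs from *Cyp27b1* and *Cyp24a1* through *Cyp2r1*, *Vdr*, *Rxra*, *Lrp2*, *Cubn*, *Pth1r* and *Kl* to *Fgfr1*, and all 10 were found among the 55401 gene identifiers of each per-mouse table. Male C57BL6 mice, aged 8 weeks, received an injection of SK-124 at 40 mg/kg into the peritoneum or of the carrier alone, which held 15% 2-hydroxypropyl-beta-cyclodextrin. SK-124 is a small molecule that inhibits the salt-inducible kinases SIK2 and SIK3, enzymes that parathyroid hormone signaling switches off in cells. The labels name no engineered allele, each group held 6 mice, and each mouse gave 1 library from whole kidney, a mixture of all its cell types. The comparison asked how an acute block of these kinases changes the vitamin D machinery of the kidney.

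Vitamin D from skin or diet becomes the hormone calcitriol through hydroxylation first in the liver, mainly by CYP2R1, and then in the kidney by CYP27B1. CYP24A1 adds a further hydroxyl group that starts the breakdown of the hormone and its precursor, so the kidney sets the supply through the balance of these enzymes. The precursor reaches the proximal tubule cell bound to its carrier protein and is taken up from the filtrate by megalin (*Lrp2*) and cubilin (*Cubn*). Calcitriol acts through the vitamin D receptor (*Vdr*), which binds DNA together with a retinoid X receptor such as *Rxra*. Parathyroid hormone, acting on its receptor *Pth1r*, raises calcitriol production, and the bone hormone FGF23, acting on an FGF receptor such as *Fgfr1* together with klotho (*Kl*), lowers it.

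SK-124-treated kidneys held more *Cyp27b1* mRNA and less *Cyp24a1* and *Vdr* mRNA than vehicle-treated kidneys. *Cyp27b1* rose 5.89-fold, *Cyp24a1* fell by 79.99% and *Vdr* fell by 29.1%. *Fgfr1* fell by 10.7%, and its call was lost under some of the settings tried. The uptake receptors, the hormone receptor *Pth1r*, *Kl* and *Rxra* did not pass the test. Among the 9 genes with enough counts to test, 1 was called higher and 3 lower at a false discovery rate (FDR, the Benjamini-Hochberg adjusted p) under 0.05 with edgeR's quasi-likelihood test. Across all 14159 genes tested, 10.8% were called higher, 13.5% lower and 24.4% in either direction, so called genes were frequent in this comparison as a whole. The groups did not overlap in normalized level for 3 of the 9 genes (*Cyp27b1*, *Vdr* and *Fgfr1*), against 13% of all genes tested.

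Levels are given below as CPM, in which edgeR's TMM factors put the counts of all mice on a common scale, where a gene is compared between groups, and as the authors' TPM, which is scaled for transcript length as well, where genes are compared with each other. Expected counts summed to between 19244227 and 19771802 per mouse, so depth hardly differed between libraries. Vehicle mouse 3 stood apart from the other vehicle mice, with a chi-square per degree of freedom of 20.7 to 26.6 against each of them where the others differed among themselves by 4.69 to 9.10. SK-124 mice 1 to 3 and SK-124 mice 4 to 6 were compared as sets, at 13.5 to 32.5 across the sets and 6.02 to 17.7 within them. These ranges overlapped through SK-124 mouse 3. It stood at 12.8 from mouse 1 and 17.7 from mouse 2, beside 13.5 from mouse 6, 14.3 from mouse 4 and 22.1 from mouse 5. The 10 most counted genes took 44.4% to 46.8% of counts in the first set, 38.6% to 40.2% in the second and 39.9% to 43.2% in vehicle mice. No label names a batch that would separate these mice. Results for the members are therefore given also without vehicle mouse 3 or for each set of SK-124 mice where they bear on a call, and calls of related genes that a set lost are named. Markers of proximal tubule segments S1 and S2, where much of this pathway is known to act, were abundant: the 5 genes (*Slc5a2*, *Slc5a12*, *Slc34a1*, *Slc22a6* and *Gatm*) summed to 2508 to 3129 TPM in vehicle mice and 2086 to 2645 TPM in SK-124-treated mice, and none of the 5 was called. In whole tissue, fewer cells of a type and less RNA per cell cannot be told apart. P-values weigh the difference between the groups against the spread between these mice.

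The 250 bases before the RefSeq transcription start of *Cyp27b1* and of *Vdr*, a called gene in each direction, are shown (build GRCm38.p6). RefSeq entries were matched for 8 of the 10 genes. *Cyp24a1* and *Fgfr1*, the other called members, had none, so the windows shown are those available for members that changed. Capitals mark matches to short promoter motifs, searched on both strands. The CCAAT box was searched by the letters of its name, the TATA-type box as TATATA, which reads the same on both strands, and the GC box by its usual core GGGCGG. Matches may share bases, though none do here. The *Cyp27b1* window lies at chr10:127047996-127048245 on the plus strand, outside annotated exons. The *Vdr* window lies at chr15:97908297-97908546 on the minus strand, with its last 14 bases inside an exon of another annotation, GENCODE M21. In that annotation the *Vdr* gene starts farther upstream, at 97910630, so the window lies inside the gene.
Cyp27b1: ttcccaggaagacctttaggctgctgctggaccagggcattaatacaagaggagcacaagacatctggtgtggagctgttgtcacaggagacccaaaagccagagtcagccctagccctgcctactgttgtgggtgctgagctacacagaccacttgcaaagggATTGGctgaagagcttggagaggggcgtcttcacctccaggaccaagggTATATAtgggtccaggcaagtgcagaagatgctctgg
Vdr: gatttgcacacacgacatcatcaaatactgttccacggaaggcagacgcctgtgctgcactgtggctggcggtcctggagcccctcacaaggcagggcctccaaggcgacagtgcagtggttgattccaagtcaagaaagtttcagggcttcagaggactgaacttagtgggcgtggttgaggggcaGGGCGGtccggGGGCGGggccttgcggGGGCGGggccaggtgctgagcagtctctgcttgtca

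The windows differed in their letters. The *Cyp27b1* window held a TATATA match starting 37 bases before the transcription start and a reverse-strand CCAAT match starting 86 bases before it, and its GC content was 54.4%. The *Vdr* window held 3 matches to GGGCGG and none to TATATA, with a GC content of 61.2%. Among 32851 mouse promoter windows of the same length, 5.25% held TATATA, 33.8% held CCAAT and 32.7% held GGGCGG, and the median GC content was 52.4%. Neither window held the full cyclic AMP response element TGACGTCA, which stood in 1.55% of all windows. Its shorter form TGACG was likewise missing and stood in 17.8% of all windows. Nor did either hold the nuclear receptor half-site AGGTCA, which stood in 14.02% of all windows. A second form of that half-site, GGTTCA, was also missing from these and stood in 8.85% of all windows. No match says only that these letters are not in this window.

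*Cyp27b1* (ENSMUSG00000006724.12; chromosome 10 from 127048250 to 127053006, plus strand, GENCODE M21 on GRCm38) encodes the renal enzyme that makes calcitriol. No other annotated gene overlaps it. In vehicle mice 1 to 6 its expected counts were 70, 104, 61, 99, 180 and 158. In SK-124-treated mice 1 to 6 they were 432, 719, 773, 434, 696 and 541. The lowest SK-124-treated mouse stood well above the highest vehicle mouse, and the groups did not overlap. The mean level was 5.46 ± 2.16 CPM with vehicle and 32.4 ± 9.12 CPM with SK-124 (SD, n = 6 each). This is a log2 fold change of 2.56 (standard error 0.22, 95% interval 2.12 to 2.997, FDR = 2.35e-07, edgeR). Only 34 of the 14159 genes tested, *Cyp27b1* included, had a log2 fold change of this size or more. The call held in the first SK-124 set (2.75), in the second (2.35) and without vehicle mouse 3 (2.44).

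*Cyp24a1* (ENSMUSG00000038567.5; chromosome 2 from 170482708 to 170497145, minus strand) encodes the enzyme that inactivates calcitriol, and its gene is a known target of the vitamin D receptor. In vehicle mice 1 to 6 its expected counts were 2961, 942, 1119, 820, 1159 and 2508. In SK-124-treated mice 1 to 6 they were 194, 89, 175, 901, 354 and 71. SK-124 mouse 4, with 901, lay above the lowest vehicle mouse, so the groups overlapped through that mouse alone, while vehicle mice 1 and 6 lay well above their group. The mean level was 77.5 ± 43.8 CPM with vehicle and 15.4 ± 15.2 CPM with SK-124 (SD, n = 6 each). This is a log2 fold change of -2.32 (standard error 0.48, 95% interval -3.25 to -1.39, FDR = 0.00154, edgeR), and 6 genes of all tested, *Cyp24a1* included, fell by this much or more. Without SK-124 mouse 4 the log2 fold change was -3.02. It was -3.14 with SK-124 mice 1 to 3 only and -1.81 with SK-124 mice 4 to 6 only, where the FDR was 0.0478. *Pfdn4*, a prefoldin subunit gene that overlaps *Cyp24a1* on the opposite strand, averaged 63.5 counts in vehicle mice and 48.3 in SK-124-treated mice (log2 fold change -0.27, FDR = 0.235, edgeR). Those reads were few beside those of *Cyp24a1* in vehicle mice, but not in SK-124 mice 2 and 6, where *Cyp24a1* had 89 and 71. The strand setting of the counting is not given in the sources used here.

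**Figure D1:**
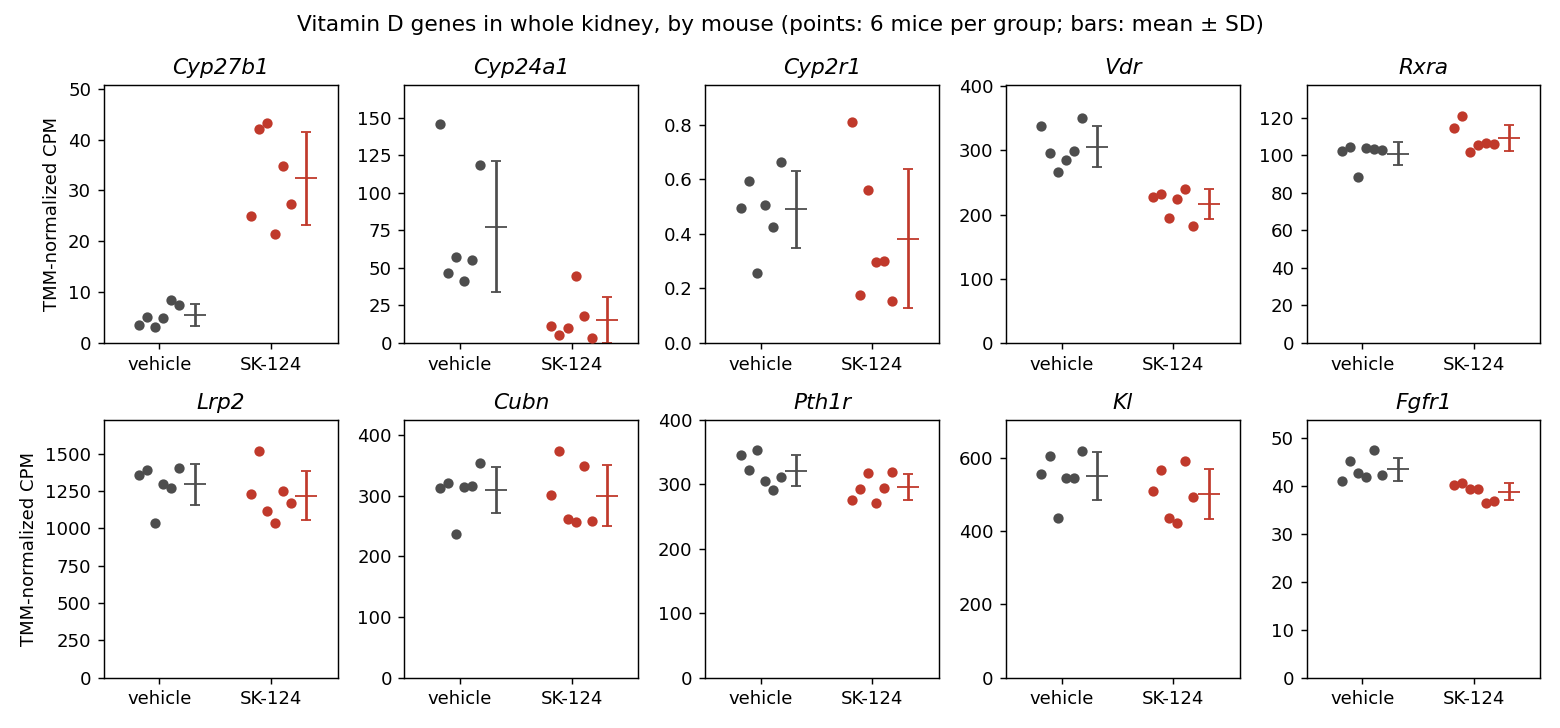
TMM-normalized CPM (vertical axes, starting at 0) of the 10 genes in each mouse, with vehicle in grey and SK-124 in red; points are mice and bars are the mean ± SD of 6 mice. The *Cyp27b1*, *Vdr* and *Fgfr1* points of the groups do not overlap, and SK-124 mouse 4 is the high point for *Cyp24a1* at 44.6 CPM.

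Set side by side per length, the hydroxylases changed places. In vehicle mice, *Cyp27b1* stood at 1.18 to 3.82 TPM and *Cyp24a1* at 10.8 to 40.3 TPM. In SK-124-treated mice *Cyp27b1* stood at 8.64 to 15.1 TPM and *Cyp24a1* at 0.990 to 11.8 TPM. The ratio of *Cyp27b1* to *Cyp24a1* TPM was 0.0357, 0.168, 0.0819, 0.183, 0.238 and 0.0958 in vehicle mice 1 to 6, below 1 in every one. It was 3.40, 12.3, 6.70, 0.737, 2.998 and 11.5 in SK-124-treated mice 1 to 6, above 1 in all but mouse 4. The median ratio was 0.132 in vehicle mice and 5.05 in SK-124-treated mice. On the log2 scale the ratio averaged -3.15 ± 0.9995 and 2.13 ± 1.52 (SD, n = 6 each). The ratio is a description and restates the changes of its parts.

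**Figure D2:**
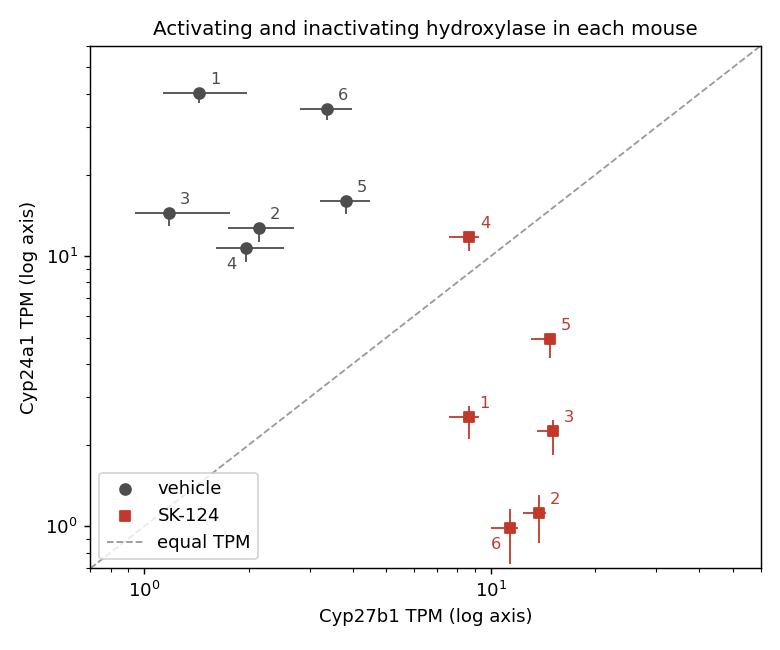
TPM of *Cyp27b1* (horizontal, log axis) and *Cyp24a1* (vertical, log axis) in each mouse, numbered by replicate; lines are RSEM's 95% credible intervals within a library, which for *Cyp24a1* end just below the estimate in vehicle mice 1 and 6. All 6 vehicle mice lie above the dashed line of equal TPM and 5 SK-124-treated mice lie below it, with SK-124 mouse 4 above it at a ratio of 0.737.

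Within a group, the level of one hydroxylase did not pass a test of following the other. On log2(CPM + 0.5), Pearson's r between *Cyp27b1* and *Cyp24a1* was -0.09 in vehicle mice (exact permutation p = 0.833, two-sided, n = 6) and -0.47 in SK-124-treated mice (exact permutation p = 0.364). Spearman's rho was -0.20 (exact permutation p = 0.714) and -0.49 (exact permutation p = 0.356). Leaving out the 2 mice farthest from the median gave an r of -0.11 and -0.02. These belong to a family of 6 relations, 3 pairs of genes in each group, and the Benjamini-Hochberg adjusted p of r was 0.833 and 0.437.

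The RT-qPCR primers used for these enzymes elsewhere in the work are shown to mark the stretch of each mRNA that assay reads, and all were placed on GENCODE M21 transcripts. The *Cyp27b1* pair gives a product of 78 bases, at positions 346 to 423 of the 2380-base coding transcript, and matches all 3 annotated transcripts. Its forward primer lies in exon 2 (chromosome 10 from 127049184 to 127049207) and its reverse primer spans the junction of exons 2 and 3. The *Cyp24a1* pair gives 124 bases, at positions 440 to 563 of its only annotated transcript of 3560 bases. Both of its primers lie in the coding part of exon 1 (forward, chromosome 2 from 170496686 to 170496706; reverse, from 170496583 to 170496605).
Cyp27b1 forward: agagcgctgtagtttctcatcatg
Cyp27b1 reverse: ccatccgccgttagcaat
Cyp24a1 forward: acccccaaggtccgtgacatc
Cyp24a1 reverse: ccagttggtgggtccaggtaagg

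*Cyp2r1* (ENSMUSG00000030670.16; chromosome 7 from 114549682 to 114562972, minus strand), whose enzyme adds the first hydroxyl group mainly in the liver, was barely counted in kidney. Vehicle mice 1 to 6 held 10, 12, 5, 10, 9 and 14 expected counts, and SK-124-treated mice 1 to 6 held 14, 3, 10, 6, 6 and 3. The groups overlapped, and the gene did not pass the filter on low counts. Where another setting let it be fitted, the log2 fold change ran from -0.95 to 0.07 with an FDR of 0.117 or more, so no difference was detectable at this depth.

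*Vdr* (ENSMUSG00000022479.15; chromosome 15 from 97854425 to 97910630, minus strand), the receptor through which calcitriol acts, was lower in every SK-124-treated mouse than in any vehicle mouse. Its CPM was 338, 297, 267, 285, 299 and 351 in vehicle mice 1 to 6. In SK-124-treated mice 1 to 6 it was 227, 232, 195, 224, 241 and 182. This is a log2 fold change of -0.50 (standard error 0.079, 95% interval -0.65 to -0.34, FDR = 0.000169, edgeR). The fall was modest among all genes: 1019 of 14159 had a log2 fold change as low or lower. It was -0.49 in the first SK-124 set, -0.50 in the second and -0.53 without vehicle mouse 3.

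*Rxra* (ENSMUSG00000015846.15), the partner of *Vdr* on DNA, stood at 102, 104, 88.7, 104, 103 and 103 CPM in vehicle mice 1 to 6. In SK-124-treated mice 1 to 6 it stood at 114, 121, 102, 106, 107 and 106 CPM. The groups overlapped, and vehicle mouse 3 was the low one. The log2 fold change was 0.12 (95% interval 0.006 to 0.23, unadjusted p = 0.055, FDR = 0.152, edgeR), 0.08 without vehicle mouse 3, and it turned to -0.002 when libraries were scaled by their totals alone. This interval, like the others given, is a normal approximation and is narrower than the test implies. *Rxra* varied little in CPM among vehicle mice (coefficient of variation 6.00%) and more in TPM (21.8%), and the abundance-weighted length of its transcripts, by which TPM is scaled, ran from 3272 to 4647 bases among them.

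*Cyp24a1* and *Vdr* were compared within groups because the receptor is known to drive the enzyme's gene. Pearson's r was 0.84 in vehicle mice (exact permutation p = 0.0972, adjusted 0.194, n = 6) and 0.51 in SK-124-treated mice (exact permutation p = 0.256, adjusted 0.383). Spearman's rho was 0.60 (exact permutation p = 0.242) and 0.43 (exact permutation p = 0.419). Without the 2 mice farthest from the median *Cyp24a1* level, r was -0.30 in vehicle mice and 0.16 in SK-124-treated mice, so the vehicle value rested on those mice.

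Megalin and cubilin, the receptors that retrieve carrier-bound vitamin D from the filtrate, did not pass the test between the groups. *Lrp2* (ENSMUSG00000027070.14; chromosome 2 from 69424340 to 69586065, minus strand) ran from 1038 to 1407 CPM in vehicle mice, with a median of 1329, and from 1036 to 1518 CPM in SK-124-treated mice, with a median of 1198. Its log2 fold change was -0.09 (95% interval -0.26 to 0.09, FDR = 0.542, edgeR). *Cubn* (ENSMUSG00000026726.10; chromosome 2 from 13276338 to 13491813, minus strand) ran from 238 to 353 CPM, median 316, and from 257 to 373 CPM, median 282. Its log2 fold change was -0.04 (95% interval -0.25 to 0.16, FDR = 0.809, edgeR). The groups overlapped for both genes, and vehicle mouse 3 was the lowest vehicle mouse for each. Without it the log2 fold changes were -0.14 and -0.11 and neither gene passed the test. The intervals leave room for a fall of *Lrp2* by 0.26 and of *Cubn* by 0.25 on the log2 scale.

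*Lrp2* and *Cubn*, partners in uptake, were correlated across mice within each group before adjustment. Pearson's r was 0.96 in vehicle mice (exact permutation p = 0.025, adjusted 0.075, n = 6) and 0.89 in SK-124-treated mice (exact permutation p = 0.00833, adjusted 0.05). Spearman's rho was 0.77 (exact permutation p = 0.103, adjusted 0.308) and 0.94 (exact permutation p = 0.0167, adjusted 0.1). Without the 2 mice farthest from the median *Lrp2* level, r was 0.34 in vehicle mice and 0.87 in SK-124-treated mice. The vehicle relation thus rested on those mice, and neither relation was under 0.05 after adjustment over the 6 relations.

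Neither the parathyroid hormone receptor nor klotho passed the test. *Pth1r* (ENSMUSG00000032492.14; chromosome 9 from 110722085 to 110747145, minus strand) ran from 291 to 353 CPM in vehicle mice, median 316, and from 270 to 319 CPM in SK-124-treated mice, median 294. Its log2 fold change was -0.12 (95% interval by normal approximation -0.24 to -0.002, unadjusted p = 0.0629, FDR = 0.168, edgeR). It passed the test only when libraries were scaled by their totals (-0.23, FDR = 0.0189), a scaling that moved the median of all genes to -0.12. *Kl* (ENSMUSG00000058488.7; chromosome 5 from 150952607 to 150993817, plus strand), the co-receptor that makes an FGF receptor bind FGF23, ran from 435 to 618 CPM and from 421 to 590 CPM. Its log2 fold change was -0.13 (95% interval -0.32 to 0.05, FDR = 0.337, edgeR). The groups overlapped for both genes.

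*Fgfr1* (ENSMUSG00000031565.18; chromosome 8 from 25513654 to 25575718, plus strand), the FGF receptor most often paired with klotho, stood at 41.0, 45.1, 42.6, 41.8, 47.4 and 42.1 CPM in vehicle mice 1 to 6. In SK-124-treated mice 1 to 6 it stood at 40.1, 40.6, 39.4, 39.4, 36.3 and 36.7 CPM. The groups did not overlap, but the highest SK-124-treated mouse and the lowest vehicle mouse were close. The log2 fold change was -0.16 (standard error 0.053, 95% interval -0.27 to -0.06, FDR = 0.0336, edgeR). The fold stayed negative in all 21 alternative settings (-0.37 to -0.11), and the call was lost in 9 of them. These were the sets of SK-124 mice 1 to 3 (-0.11, FDR = 0.300) and 4 to 6 (-0.20, FDR = 0.0607), the fit without a filter (-0.16, FDR = 0.0714), the fit with a replicate block (-0.16, FDR = 0.0569), and the fits that left out vehicle mouse 2 or 5 or SK-124 mouse 3, 5 or 6.

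**Figure D3:**
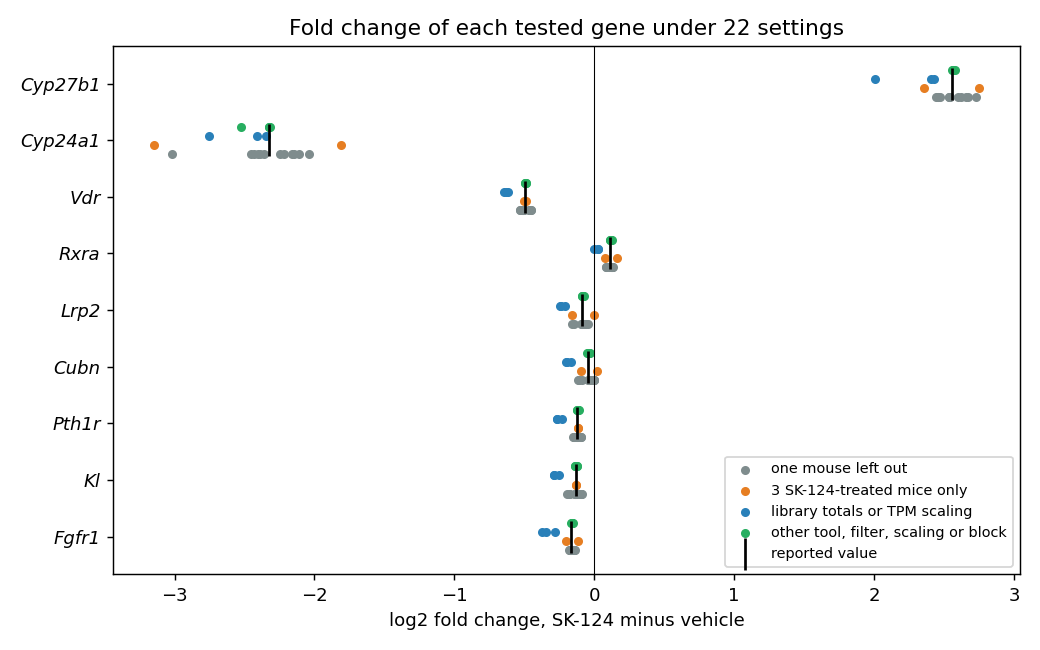
Log2 fold change, SK-124 minus vehicle (horizontal axis), of the 9 tested genes under the reported fit (black bar) and 21 alternatives (colored points: a mouse left out, 3 SK-124-treated mice only, library totals or TPM, and other tools, filters or scalings). *Cyp27b1* stays between 2.00 and 2.75 and *Cyp24a1* between -3.14 and -1.81, while *Rxra* and *Cubn* reach the other side of 0.

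Compared with each other per length, *Pth1r*, *Kl*, *Lrp2* and *Vdr* stood above the hydroxylases in both groups. In vehicle mice the mean was 155 TPM for *Pth1r*, 104 for *Kl*, 79.1 for *Lrp2*, 70.3 for *Vdr*, 26.9 for *Rxra*, 26.0 for *Cubn*, 21.6 for *Cyp24a1*, 13.5 for *Fgfr1*, 2.32 for *Cyp27b1* and 0.373 for *Cyp2r1*. Neighbors in this order overlapped in their ranges over mice except *Pth1r* and *Kl*, *Vdr* and *Rxra*, *Fgfr1* and *Cyp27b1*, and *Cyp27b1* and *Cyp2r1*. In SK-124-treated mice the first 6 genes kept their places, at 130, 84.9, 66.6, 44.9, 27.1 and 22.5 TPM. *Cyp27b1* followed at 12.1 TPM, then *Fgfr1* at 10.4, *Cyp24a1* at 3.93 and *Cyp2r1* at 0.233. Here the ranges of *Lrp2* and *Vdr*, *Vdr* and *Rxra*, *Cubn* and *Cyp27b1*, and *Cyp24a1* and *Cyp2r1* did not overlap, while those of the other neighbors did. *Cyp24a1* had the widest spread of all members in either group, with a coefficient of variation in TPM of 59.1% in vehicle mice and 104% in SK-124-treated mice.

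**Figure D4:**
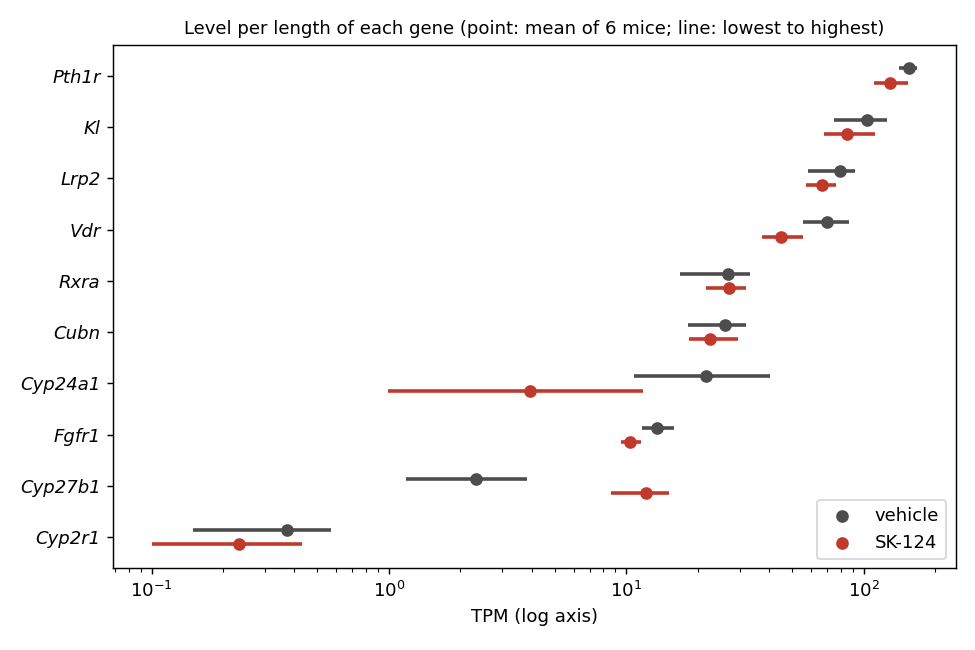
Authors' TPM (horizontal, log axis) of the 10 genes in vehicle (grey) and SK-124-treated mice (red); points are means of 6 mice and lines run from the lowest to the highest mouse. *Cyp27b1* goes from 2.32 to 12.1 TPM and *Cyp24a1* from 21.6 to 3.93 TPM, while *Rxra* stands at 26.9 and 27.1 TPM.

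The abundance-weighted transcript length that RSEM gives for each gene, which moves when a gene's transcripts change their shares, was examined in the members with several annotated transcripts. *Cyp24a1* has a single transcript and could not move. The groups overlapped for all others except *Kl*, where the length was 5123 to 5125 bases in vehicle mice and 5121 to 5123 bases in SK-124-treated mice. The ranges touched once rounded to whole bases, so the shift was very small, though only 0.589% of 12397 genes with several transcripts had groups that did not overlap. For *Cyp27b1* the length was 2393 to 2443 bases in vehicle mice and 2400 to 2417 bases in SK-124-treated mice.

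Around these members, 50 further genes of the pathway are described by role, of which 42 had enough counts to test. 5 were called higher, 6 lower and 31 were not called. Their median log2 fold change was 0.004, beside -0.005 for all genes tested. The shares called, 5 and 6 of 42, can be read beside the 10.8% and 13.5% of all genes given above.

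Of 6 tested genes for other hydroxylases, the vitamin D carrier and electron supply, 2 rose. *Cyp27a1*, a mitochondrial enzyme that can also hydroxylate vitamin D, ran from 22.8 to 27.2 CPM in vehicle mice and from 32.8 to 38.1 CPM in SK-124-treated mice, with no overlap (log2 fold change 0.52, standard error 0.061, FDR = 7.12e-06, edgeR). *Por*, which passes electrons to microsomal P450 enzymes, rose by 0.19 (FDR = 0.0203, edgeR) and lost its call in 5 of 21 alternatives. These were both limma fits on TPM (0.03 in each, FDR = 0.851 and 0.849) and library totals (0.08, FDR = 0.426). The others were SK-124 mice 1 to 3 only (FDR = 0.0894) and the fit without vehicle mouse 6 (FDR = 0.0529). Ferredoxin and its reductase, which serve the mitochondrial P450 enzymes CYP27B1 and CYP24A1, were not called: *Fdx1* had a log2 fold change of 0.14 (FDR = 0.0678) and *Fdxr* of -0.14 (FDR = 0.496) with edgeR. *Cyp11a1* and *Cyp3a11* had too few counts to test.

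Of 12 tested receptor partners and coregulators, 2 were called. *Ncoa2*, a coactivator of nuclear receptors, ran from 33.5 to 61.7 CPM in vehicle mice and from 67.5 to 97.5 CPM in SK-124-treated mice (log2 fold change 0.48, FDR = 0.00801, edgeR). Its call was lost in both limma fits on TPM (0.26, FDR = 0.321, and 0.28, FDR = 0.319) and with SK-124 mice 4 to 6 only (0.40, FDR = 0.0896). *Snw1*, a coregulator that binds the vitamin D receptor, had a log2 fold change of 0.15 (FDR = 0.0420, edgeR) and lost its call in 13 of 21 alternatives, both SK-124 sets among them, and changed sign in 2 more, the limma fits on TPM (-0.011 and -0.012). *Rxrb*, which can stand in for *Rxra*, was at -0.03 (FDR = 0.731).

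The 7 uptake partners described were tested, with log2 fold changes from -0.15 (*Gipc1*, an adaptor that binds the tail of megalin, FDR = 0.194, edgeR) to 0.02. *Amn*, which carries cubilin to the cell surface, was at 0.02 (FDR = 0.904), and *Dab2*, the main adaptor of megalin, at -0.11 (FDR = 0.373). *Lrpap1*, the megalin chaperone, was at 0.009 (FDR = 0.921).

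Of 11 tested genes for hormone receptors and their coupling, 1 rose and 5 fell. The FGF receptors moved in different directions. *Fgfr3* fell: it ran from 25.2 to 32.4 CPM in vehicle mice and from 12.5 to 16.04 CPM in treated mice (log2 fold change -0.93, standard error 0.074, FDR = 6.91e-08, edgeR). *Fgfr4* fell by 0.29 (FDR = 0.00558), and *Fgfr2* rose by 0.58, with 11.8 to 15.2 CPM in vehicle mice and 17.2 to 22.8 CPM in treated mice (FDR = 5.55e-05, edgeR). In CPM the groups overlapped for none of these 3 receptors, where 13% of all genes tested had no overlap. In TPM the groups overlapped for *Fgfr2* and *Fgfr4*. *Gna11*, a G protein subunit that the parathyroid hormone receptor can engage, had a log2 fold change of -0.19 (FDR = 0.0160). The arrestins *Arrb1* and *Arrb2*, which bind the activated receptor, were at -0.23 (FDR = 0.0218) and -0.32 (FDR = 0.0223). *Arrb1* lost its call in 7 of 21 alternatives, with SK-124 mice 1 to 3 among them (FDR = 0.179), and *Arrb2* in 2, with SK-124 mice 4 to 6 among them (FDR = 0.213). *Gna11* lost its call in either SK-124 set (FDR = 0.0785 and 0.131), and *Fgfr4* with SK-124 mice 4 to 6 (FDR = 0.0531), while *Fgfr2* and *Fgfr3* kept theirs in all 21 alternatives. *Gnas*, the stimulatory subunit through which the receptor raises cyclic AMP, was at 0.07 (FDR = 0.367). *Pth*, *Pth2r*, *Pthlh*, *Fgf23* and *Klb* had too few counts to test, and *Pth* and *Fgf23* had no count in any mouse.

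Of 6 calcium-handling genes known to follow vitamin D, 1 fell. *Slc8a1*, the sodium-calcium exchanger, had a log2 fold change of -0.29 (FDR = 0.0314, edgeR), and its call was lost in 9 of 21 alternatives, both SK-124 sets among them. The calcium-binding protein genes *Calb1* and *S100g* were at 0.11 (FDR = 0.473) and 0.09 (FDR = 0.677). The apical channels *Trpv5* and *Trpv6* were at -0.08 (FDR = 0.619) and 0.46 (FDR = 0.271), with *Trpv6* at 1.77 CPM at most. *Atp2b1*, the calcium pump, was at 0.16 (FDR = 0.103).

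**Figure D5:**
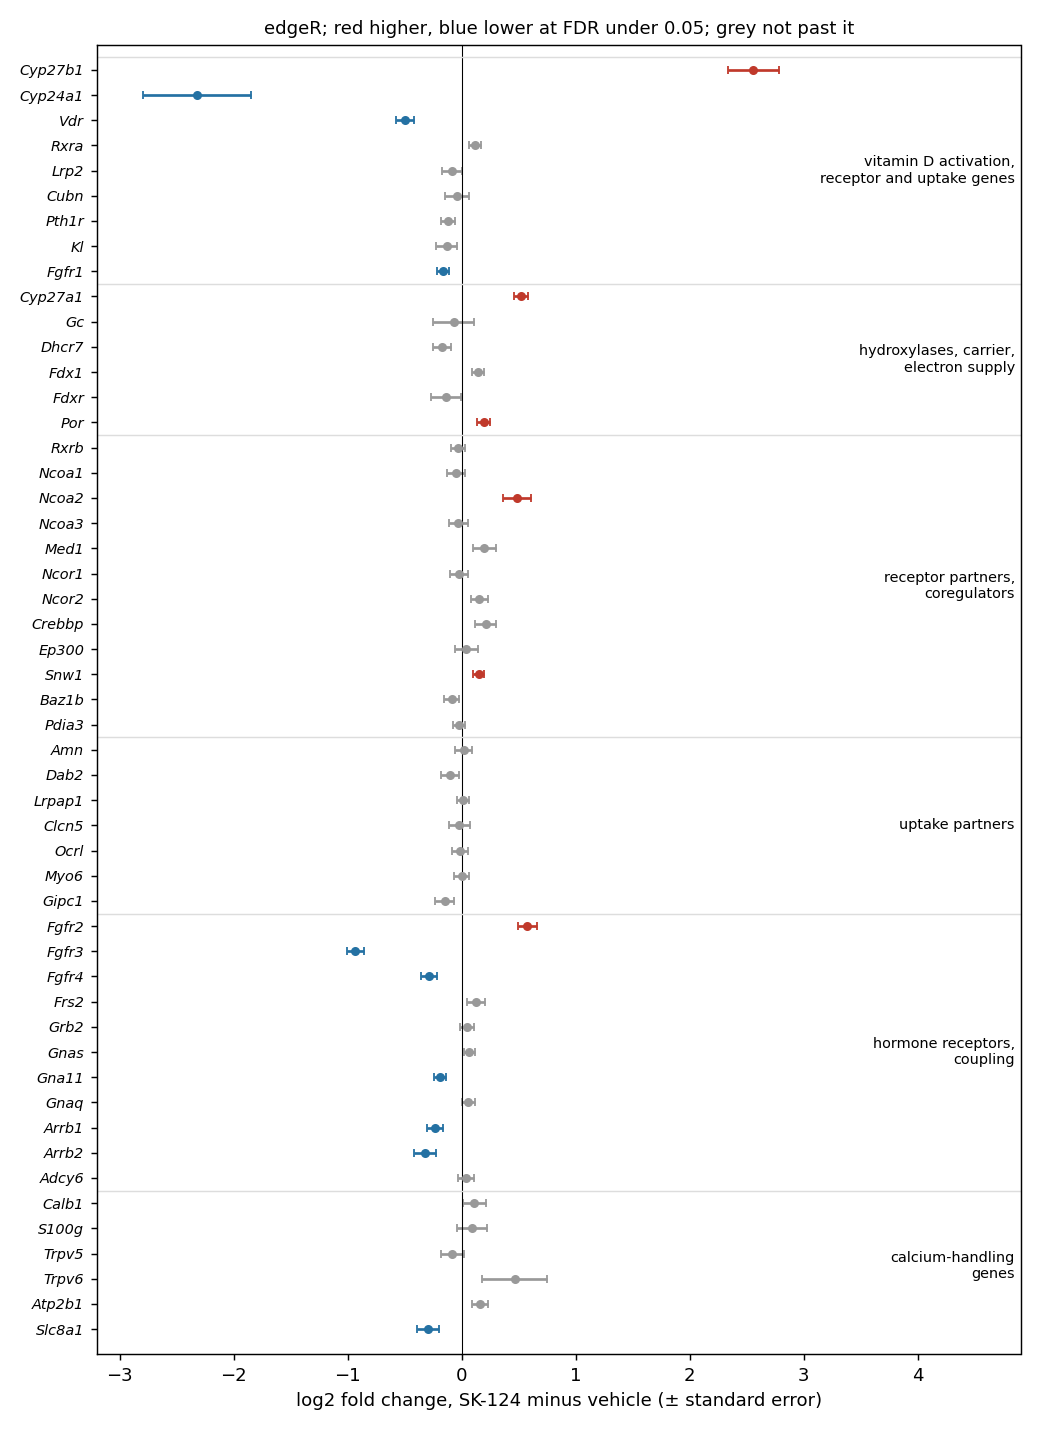
Log2 fold change, SK-124 minus vehicle (horizontal axis, with ± 1 standard error), of the 9 tested members and 42 related genes grouped by role; red marks genes called higher, blue lower, grey not called by edgeR at an FDR under 0.05. *Cyp27b1* at 2.56 and *Cyp24a1* at -2.32 lie farther from 0 than any related gene, the farthest of which is *Fgfr3* at -0.93.

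Of 36 markers of kidney and other cell types, 31 were tested, 4 were called higher and 4 lower, a share near the 24.4% called among all genes tested. Higher were *Atp11a* (log2 fold change 0.32) and *Cyp7b1* (0.43) of the last proximal tubule segment, *Cldn16* (0.50) of the thick ascending limb and *Aqp2* (0.75) of the collecting duct. Lower were *Slc4a1* (-0.59) of the collecting duct, *Kdr* (-0.85) of endothelium, *Pdgfrb* (-0.93) of stroma and *Cd68* (-0.60) of macrophages. Other markers of these lists, none called, did not all go the same way. *Cdh5* (0.29, FDR = 0.0978, edgeR) and *Pecam1* (0.07, FDR = 0.697) differed in sign from *Kdr*, and *Atp6v1g3* (0.04, FDR = 0.785) from *Slc4a1*. *Col1a1* (-0.47, FDR = 0.0989) and *Col3a1* (-0.42, FDR = 0.178) shared the sign of *Pdgfrb*, and *Ptprc* (-0.29, FDR = 0.104) that of *Cd68*. The 3 stromal markers summed to 12.2 to 19.7 TPM in vehicle mice and 6.02 to 16.9 TPM in SK-124-treated mice, and the 3 endothelial markers to 18.4 to 28.7 and 12.97 to 27 TPM. Their part in the fall of *Vdr*, *Fgfr1* or *Fgfr3* was not tested. These sums are in TPM, on which the median of all genes was also lower, at -0.14 on log2(TPM + 0.1). Of the adrenal genes, *Cyp11b2* and *Cyp21a1* had no count in any mouse and *Cyp11b1* had 1 count at most. *Star* had 9 to 13 counts in vehicle mice and 5 to 17 in SK-124-treated mice. It was not called (log2 fold change 0.21, FDR = 0.646, edgeR).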

How the data were processed

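Whole kidneys of 6 vehicle-treated and 6 SK-124-treated mice were sequenced on a BGISEQ500 instrument, 1 library per mouse, and groups were taken from the sample labels. The text of the study names no separate time after injection for these libraries. The authors deposited an RSEM gene table for each mouse. It holds unnormalized expected counts (RSEM's estimate of the reads of a gene) and the TPM and FPKM that the authors' RSEM run scaled to effective length and library total, with credible intervals of TPM and the abundance-weighted transcript length. FPKM served only as an alternative to TPM for the order of the levels. The submitters' processing notes list FastQC, STAR 2.7.2b, RSEM 1.3.0, DESeq2 and build mm10, in no stated role or order. The annotation and strand setting are not given in the sources used here.

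Identifiers were matched to GENCODE M21 (GRCm38): 54349 of 55401 with their version, 792 without it and 260 not at all. *Rxra*, matched without its version, is given no coordinates. Expected counts were rounded, filtered with filterByExpr, scaled by TMM and fitted by edgeR's quasi-likelihood method (edgeR 4.0.16, limma 3.58.1, R 4.3.3), with Benjamini-Hochberg adjustment over 14159 genes. The fit had no replicate block, since the numbers name different mice. The standard error was taken from the F statistic as the size of the log2 fold change over the root of F. CPM is TMM-normalized. The common biological coefficient of variation was 0.101. Depth limits mainly genes with few counts. The text of the study read here names no test for these counts, and the submitters' notes list DESeq2.

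Members, lists and alternatives were chosen with earlier results of these data known. Named were the 10 members, related genes past FDR 0.05, selected others of each list as examples, and the 3 genes most like *Cyp27b1* or *Cyp24a1*. The examples not called were picked with their values in view. The alternatives tried were DESeq2 1.42.0, RLE scaling, library totals only, no filter, a replicate block, limma on log2(TPM + 1) and log2(TPM + 0.1) with a mean of at least 0.1 TPM, each mouse left out, and SK-124 mice 1 to 3 or 4 to 6 only. Correlations on log2(CPM + 0.5) were given exact permutation p-values (two-sided). A related gene and a marker are not reported here and were left out of the list counts. The scripts were tested on simulated counts. No 2 libraries of a group agreed within counting noise: over 30 pairs the lowest chi-square was 4.69 per degree of freedom.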

Additional observations from a re-analysis of the deposited data

Results flagged for a closer look

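Each of the 10 genes was examined in each group for a mouse that stood apart from the other 5, by the gap to its nearest neighbor as a share of the group's range (Dixon's test). Of the 20 sets of values, 4 held such a mouse, where chance gives about 1. *Cyp24a1* in SK-124 mouse 4 was the highest of its group at 44.6 CPM, where the other 5 ran from 3.60 to 17.7 CPM. The other 3 were all vehicle mouse 3. It was the lowest vehicle mouse for *Rxra* (88.7 CPM, the others 102 to 104), for *Lrp2* (1038 CPM, the others 1272 to 1407) and for *Cubn* (238 CPM, the others 313 to 353). *Lrp2* and *Cubn* had a Pearson's r of 0.96 over vehicle mice, so these values are not separate observations.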

How the results depend on the processing

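*Cyp27b1* (log2 fold change 2.00 to 2.75), *Cyp24a1* (-3.14 to -1.81) and *Vdr* (-0.64 to -0.45) were called in the same direction in all 21 alternatives, and *Fgfr1* (-0.37 to -0.11) in 12. Leaving out a mouse in turn gave 2960 to 3942 called genes, with 1320 to 1863 higher and 1633 to 2079 lower, 2 to 3 members lower, and 4 to 6 related genes higher and 4 to 7 lower; *Cyp24a1* then ran from -3.02 to -2.04. Scaling by library totals gave 777 genes higher and 3058 lower, with 3 related genes higher, and moved the median of all genes to -0.12, against -0.005 in the reported fit. In limma on log2(TPM + 1), 502 genes were higher, with 2 related genes higher and 4 lower; on log2(TPM + 0.1), 510 were higher, again with 2 and 4. SK-124 mice 4 to 6 alone gave 1267 genes lower, with 3 related genes higher and 2 lower. SK-124 mice 1 to 3 alone gave 2298 called genes, 1233 of them lower, with 3 related genes higher and 3 lower; fewer mice entered these fits.

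Signs turned for *Cubn* with SK-124 mice 1 to 3 only (0.017), for *Rxra* with library totals (-0.0019), and for *Snw1* in limma on TPM (-0.011 and -0.012). The correlation of *Cyp27b1* with *Cyp24a1* in vehicle mice turned to 0.077 on log2(TPM + 0.1), and that of *Cyp24a1* with *Vdr* to -0.30 without the 2 farthest mice. The correlation of *Lrp2* with *Cubn* without those mice was 0.34 in vehicle mice and 0.87 in SK-124-treated mice; 4 mice cannot pass the test. The cause of these changes was not tested.

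Replicate numbers did not pair the mice: the correlations of same-numbered deviations were -0.045, 0.18, 0.22, 0.024, -0.13 and -0.021, and only 2 of 6 numbers correlated best with themselves. With the number as a replicate block, *Cyp27b1* had a log2 fold change of 2.56, *Cyp24a1* -2.53 and *Vdr* -0.50, and *Fgfr1* (FDR = 0.0569) and *Snw1* (FDR = 0.0628) lost their calls.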

Other observations

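Genes whose levels varied most like *Cyp27b1* from mouse to mouse, once the group means were taken away, were *Rbm26* (Pearson's r = 0.92 over 12 mice), *Armt1* (0.85) and *Slco2a1* (0.83), out of 9890 genes compared. For *Cyp24a1* they were *Prr15* (0.85), *Abhd12* (0.84) and *Mnat1* (0.82). The values are a description of the highest among many genes. None of the 6 genes was called between the groups: their FDR ran from 0.0767 for *Mnat1* to 0.806 for *Rbm26* with edgeR.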
